A study of Mus musculus with 22 samples.

Results

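The genes described here are 10 components of the Notch and Hedgehog pathways, chosen by name from the 29367 genes of the count table. They are the Notch receptors Notch1 and Notch2, the Notch ligands Jag1 and Dll1, the Notch target genes Hes1, Hes5 and Hey1, the Hedgehog receptor Ptch1, the signal transducer Smo and the transcription factor Gli1. All 10 were found in the table, and they were compared over 22 libraries prepared to enrich astrocyte mRNA. These came from the unmyelinated optic nerve head (ONH) and the myelinated optic nerve proper (ONP) of mice. Every mouse was 3 to 4 months old and carried both a homozygous ribotag allele (Rpl22 HA/HA, strain B6J.129(Cg)-Rpl22tm1.1Psam/SjJ) and a Tg (GFAP-Cre) 73.12Mvs transgene on a B6.Cg background. In these mice Cre under the mouse GFAP promoter places an HA tag on the ribosomes of astrocytes, and ribosome-bound mRNA is recovered with an antibody against HA. Any cell with a history of GFAP promoter activity is therefore included. All groups had received an injection of polystyrene microbeads into one eye, which raises the intraocular pressure (IOP). They differed in region and in the time after injection, with 7 libraries for the ONH and 7 for the ONP at 30 days, and 4 for each region at 7 days. Tissue of 4 mice (2 of each sex) was pooled for each library, so the spread between libraries is a spread between pools. Both regions were taken from each mouse, but no source used here ties the library numbers of one region to those of the other. At 7 days the libraries were matched to their region and day only, and their numbers (1, 3, 5 and 6 in the ONH, 1, 2, 5 and 6 in the ONP) serve as names. Uninjured mice were not analysed here, so the comparisons are between regions and between days after injection.

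Notch receptors are activated by ligands of the Jagged and Delta-like families on a neighbouring cell. Binding leads to cleavage by an ADAM metalloprotease and then by gamma-secretase, and the freed intracellular domain joins the DNA-binding protein RBPJ to induce repressors of the HES and HEY families. In the developing nervous system this pathway maintains progenitors and favours the astrocyte fate. In the Hedgehog pathway the receptor Ptch1 holds Smo inactive until a Hedgehog ligand binds. Smo then enters the primary cilium and alters the processing of the GLI transcription factors, of which Gli1 is an activator. Gli1 and Ptch1 are themselves induced by the pathway and are commonly used as its readouts, and astrocytes are among the cells that respond to Hedgehog ligands in the adult brain.

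On the mouse genome build GRCm38 (GENCODE M21), Ptch1 lies on the minus strand at chr13:63508328-63573598, Gli1 on the minus strand at chr10:127329882-127341974 and Smo on the plus strand at chr6:29735503-29761365. Notch1 lies at chr2:26457903-26516663 (minus strand), Notch2 at chr3:98013527-98150361 (plus strand), Jag1 at chr2:137081456-137116644 (minus strand) and Dll1 at chr17:15367354-15376872 (minus strand). The targets Hes1, Hes5 and Hey1 lie at chr16:30064384-30067796 (plus strand), chr4:154960923-154962371 (plus strand) and chr3:8663359-8667256 (minus strand). RefSeq promoter windows (GRCm38.p6), from 250 bases before the start site to 50 after it, were found for 7 of the 10 genes, and the windows of Hes1, Hey1 and Gli1 were not analysed here. They were searched on both strands for the core of the RBPJ site, GTGGGAA, and for the core of the GLI site, GACCACCCA. Of the 7 genes, 1 held the RBPJ core and 0 held the GLI core, while 7.25% and 0.289% of the 27025 genes with such a window held them. The windows of a Notch target, Hes5, and of a Hedgehog target, Ptch1, are shown as examples. Capitals mark the RBPJ core, which occurs in Hes5 on the minus strand from position -226 and on the plus strand from position -83. The window of Ptch1 had no match to either core. The windows of Ptch1 and Notch1 lie inside these genes as placed above, so sequence at their outermost start sites was not searched.
Hes5, chr4:154960673-154960972, plus strand: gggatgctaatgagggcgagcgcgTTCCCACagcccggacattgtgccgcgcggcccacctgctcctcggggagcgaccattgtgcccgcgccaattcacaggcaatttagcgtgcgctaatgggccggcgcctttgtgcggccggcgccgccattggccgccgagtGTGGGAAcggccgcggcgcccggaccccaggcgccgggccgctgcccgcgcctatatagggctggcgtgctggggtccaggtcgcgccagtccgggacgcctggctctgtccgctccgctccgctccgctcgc
Ptch1, chr13:63565686-63565985, minus strand: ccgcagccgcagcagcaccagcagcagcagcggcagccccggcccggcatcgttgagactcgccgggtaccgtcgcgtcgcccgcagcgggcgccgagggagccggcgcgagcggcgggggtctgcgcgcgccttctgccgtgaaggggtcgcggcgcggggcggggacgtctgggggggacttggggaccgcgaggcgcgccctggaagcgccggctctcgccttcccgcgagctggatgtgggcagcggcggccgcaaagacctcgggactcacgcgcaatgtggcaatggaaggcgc
A match of letters describes the sequence only, and a window without a match says only that these letters are not in it.

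The libraries held 16292489 to 33307092 counts each, with a median of 21167146.5. Levels are given as CPM, the counts scaled to a common library size after TMM normalization. An amount of 3 counts, taken as the smallest detectable one, was 0.0901 to 0.184 CPM depending on the library, and this floor covers counting error only. All 10 astrocyte markers, such as Gfap and Aqp4, were detected in every group, with summed levels of 15245 to 33733 CPM. Oligodendrocyte markers (10 genes, such as Mbp) were also abundant, at 13870 to 41828 CPM in the ONH and 26121 to 108261 CPM in the ONP. In the ONP their median sum exceeded that of the astrocyte markers, at 53978 against 28975 CPM at 30 days and 91139.5 against 20653 CPM at 7 days. In the ONH the medians were 19140 against 21022 CPM at 30 days and 23152 against 18801 CPM at 7 days. A difference between regions is therefore not read as one of astrocytes alone. In these bulk samples fewer cells of a type and less RNA per cell cannot be told apart.

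Compared per kilobase of exon over all 22 libraries, Hey1 (mean ± SD 11.3 ± 2.72 CPM per kb), Smo (10.01 ± 2.33) and Hes1 (7.61 ± 4.84) had the highest levels. The order of these 3 was not the same in every group, and in the ONH at 7 days it was Hes1 (13.6 ± 7.36), Smo (9.36 ± 3.03) and Hey1 (7.97 ± 2.62). Over all libraries they were followed by Notch2 (2.94 ± 1.04), Ptch1 (2.92 ± 1.45) and Notch1 (2.22 ± 0.668), then by Jag1 (0.857 ± 0.686) and Dll1 (0.790 ± 0.401). Hes5 (0.303 ± 0.254) and Gli1 (0.0976 ± 0.109) were the lowest. The step between neighbours in this order exceeded the larger of their 2 SDs only between Notch1 and Jag1 and between Dll1 and Hes5. Among the Notch targets, therefore, Hey1 and Hes1 were well detected in these libraries, whereas Hes5 had at most 31 counts in any library. Relative to its mean, Gli1 varied most over the 22 libraries (coefficient of variation 112%) and Smo least (23.3%).

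**Figure D1:**
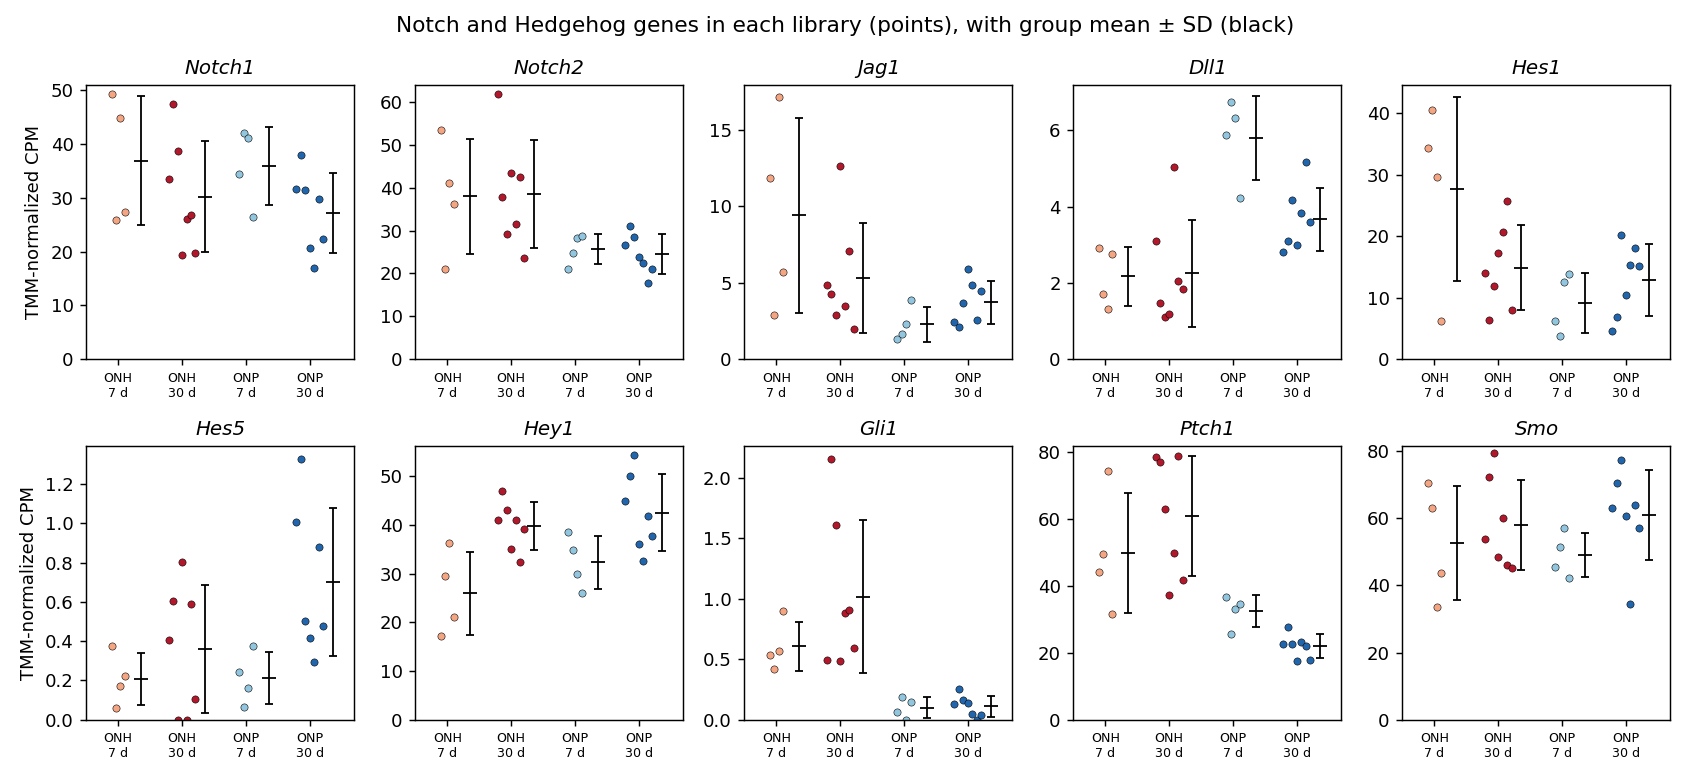
TMM-normalized CPM (vertical axes, starting at 0 and scaled per gene) of the 10 genes in the ONH and ONP at 7 and 30 days, with 1 point per library and the group mean ± SD in black (n = 7 at 30 days, n = 4 at 7 days). Ptch1 ranged from 37.4 to 78.7 CPM in the ONH and from 17.7 to 27.9 CPM in the ONP at 30 days, and Gli1 did not overlap between regions at either day.

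The first question was whether the 2 regions differed. At 30 days, 3 of the 10 genes were higher in the ONH than in the ONP and 0 were lower by edgeR's quasi-likelihood test with Benjamini-Hochberg adjustment (adjusted p under 0.05). Of all 15133 genes tested, 21.8% were called higher and 20% lower, so a count of 3 in 10 was near the background. Of the 3 genes, Gli1 and Ptch1 belong to the Hedgehog pathway and Notch2 to the Notch pathway. At 7 days 8 of the 10 genes passed the filter on low counts, and 1 of them, Jag1, was called higher in the ONH while 0 were called lower. The background in that comparison was 6.34% higher and 6.81% lower of 14752 genes.

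Ptch1 was the member with the smallest adjusted p-value. At 30 days its level in the 7 ONH libraries had a lowest value of 37.4, a median of 63.0 and a highest value of 78.7 CPM. In the ONP the lowest value was 17.7, the median 22.7 and the highest 27.9 CPM. Every ONH library thus lay above every ONP library. The means were 60.9 ± 17.9 and 22.003 ± 3.51 CPM (SD, n = 7 each), the log2FC was 1.46 ± 0.18 (SE) and the adjusted p-value was 1.88e-05 (edgeR), a fold of 2.75 with a 95% interval of 2.11 to 3.58. At 7 days Ptch1 was at 44.0, 49.6, 74.2 and 31.6 CPM in ONH libraries 1, 3, 5 and 6, and at 36.8, 25.5, 33.2 and 34.6 CPM in ONP libraries 1, 2, 5 and 6. Of the 4 ONH libraries, 3 lay above all ONP libraries, and the log2FC of 0.64 ± 0.26 had an adjusted p-value of 0.13 (edgeR), which did not pass. Leaving out 1 library gave log2FC of 0.36 to 0.79 over 8 fits. Ptch1 passed in 1 of these fits, the one without ONH library 6.

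Gli1, the GLI factor that is itself a transcriptional target of the pathway, had few reads. In the ONH it had 9 to 50 counts per library at 30 days and 10 to 16 at 7 days, and in the ONP 0 to 6 and 0 to 4. At 30 days its level was 0.483 at the lowest, 0.881 at the median and 2.16 CPM at the highest in the ONH, and 0, 0.131 and 0.257 CPM in the ONP. The groups did not overlap. The fitted log2FC was 3.12 ± 0.58 (SE), with a 95% interval of 1.90 to 4.33 and an adjusted p-value of 0.000534 (edgeR), against a group in which 6 of 7 libraries were at or below 3 counts, so its size depends on the prior count of the fit. At 7 days Gli1 was at 0.539, 0.419, 0.570 and 0.897 CPM in ONH libraries 1, 3, 5 and 6 and at 0.0613, 0.191, 0 and 0.150 CPM in ONP libraries 1, 2, 5 and 6. All 4 ONH libraries lay above all 4 ONP libraries. The gene did not pass the count filter of that comparison. With all 4 groups in a single edgeR fit it was tested at 7 days, with a log2FC of 2.54 ± 0.87 and an adjusted p-value of 0.0395, and with no filter beyond 1 count the adjusted p-value was 0.296. Exons of Gli1 share 62 bases with Arhgap9, a protein-coding gene on the other strand, and the library kit does not mark strand. Arhgap9 had a median of 98 counts in the ONH and 36 in the ONP at 30 days, and of 114 and 121.5 counts at 7 days. Its reads in the shared bases cannot be told apart from those of Gli1.

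Smo, the transducer that Ptch1 restrains, was not called between the regions at either day. Its means were 57.8 ± 13.4 CPM in the ONH and 60.9 ± 13.5 in the ONP at 30 days (n = 7 each), and 52.6 ± 17.0 and 49.0 ± 6.53 at 7 days (n = 4 each). The groups overlapped at both days. The log2FC between regions was -0.077 ± 0.17 at 30 days (95% interval -0.44 to 0.29) and 0.13 ± 0.25 at 7 days (-0.42 to 0.67). Adjusted p-values were 0.748 and 0.775 (edgeR).

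Of the Notch receptors, Notch2 was higher in the ONH at 30 days and Notch1 was not called. Notch2 had a lowest value of 23.5, a median of 37.9 and a highest value of 61.9 CPM in the ONH, and 17.9, 24.0 and 31.2 CPM in the ONP. Of the 7 ONH libraries, 5 lay above all ONP libraries, and the groups overlapped. The means were 38.6 ± 12.6 and 24.6 ± 4.61 CPM (n = 7 each), with a log2FC of 0.64 ± 0.19 and an adjusted p-value of 0.0117 (edgeR). At 7 days Notch2 was at 53.4, 21.1, 41.3 and 36.3 CPM in ONH libraries 1, 3, 5 and 6 and at 21.0, 24.9, 28.2 and 28.8 CPM in the ONP, a log2FC of 0.58 ± 0.27 with an adjusted p-value of 0.185 (edgeR). ONH library 3 lay among the ONP libraries and the other 3 above them. For Notch1 the means were 30.2 ± 10.3 (ONH) and 27.2 ± 7.42 CPM (ONP) at 30 days, and 36.9 ± 12.02 and 36.0 ± 7.26 CPM at 7 days. Its log2FC was 0.15 ± 0.22 and 0.053 ± 0.26, with adjusted p-values of 0.631 and 0.916 (edgeR).

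The Notch ligands Jag1 and Dll1 had log2FC of opposite sign between the regions. Jag1, a ligand of the Jagged family, was at 11.9, 2.90, 17.2 and 5.72 CPM in ONH libraries 1, 3, 5 and 6 at 7 days. In ONP libraries 1, 2, 5 and 6 it was at 1.29, 1.65, 2.30 and 3.86 CPM. ONH library 3 lay within the ONP range and the other 3 lay above it. The log2FC was 2.05 ± 0.59 with an adjusted p-value of 0.0436 (edgeR). This call was lost in 6 of the 8 fits that left out 1 library, namely ONH library 1 or 5 or any 1 ONP library, with adjusted p-values of 0.0533 to 0.12 and log2FC of 1.57 to 2.43. It was also lost with limma-voom (adjusted p = 0.0886). At 30 days Jag1 ranged from 1.94 to 12.6 CPM in the ONH (median 4.27) and from 2.10 to 5.91 in the ONP (median 3.68), with a log2FC of 0.51 ± 0.37 and an adjusted p-value of 0.29 (edgeR). A single ONH library, number 4, gave the highest value, and without it the log2FC was 0.13.

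Dll1, a ligand of the Delta-like family, was at 2.91, 1.70, 1.31 and 2.75 CPM in ONH libraries 1, 3, 5 and 6 at 7 days. It was at 5.88, 6.74, 6.32 and 4.23 CPM in ONP libraries 1, 2, 5 and 6. The groups did not overlap, and the log2FC of -1.40 ± 0.43 had an adjusted p-value of 0.0592 (edgeR), just short of the threshold. It passed with DESeq2 (adjusted p = 0.00305), with all 4 groups in a single fit (0.0197) and with at least 10 counts required in every library (0.0304). At 30 days Dll1 had a median of 1.83 CPM in the ONH (1.10 to 5.05) and 3.60 CPM in the ONP (2.80 to 5.18). Of the 7 ONH libraries 5 lay below all ONP libraries, while ONH library 5 was the second highest of the 14. The log2FC was -0.71 ± 0.33 (adjusted p = 0.099, edgeR), and without ONH library 5 it was -1.04 (adjusted p = 0.00936). A long noncoding gene on the other strand, A930024N18Rik, shares 867 exonic bases with Dll1 and had 0 to 24 counts, so part of the reads cannot be assigned to either gene.

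None of the 3 Notch target genes was called between the regions. Hes1, a repressor induced by Notch and by other signals, was at 34.3, 40.5, 29.6 and 6.22 CPM in ONH libraries 1, 3, 5 and 6 at 7 days, and at 6.19, 3.82, 12.6 and 13.8 CPM in ONP libraries 1, 2, 5 and 6. ONH library 6 lay within the ONP range, and the other 3 ONH libraries lay above it. The log2FC was 1.62 ± 0.56 with an adjusted p-value of 0.0815 (edgeR), and with DESeq2 it passed (adjusted p = 0.0228). Without ONH library 6 the log2FC was 1.93 (adjusted p = 0.0119). At 30 days Hes1 overlapped widely, from 6.34 to 25.8 CPM in the ONH and from 4.55 to 20.1 in the ONP, with a log2FC of 0.20 ± 0.34 (adjusted p = 0.675, edgeR). Hey1, a repressor of the HEY family, was at 39.8 ± 4.88 (ONH) and 42.5 ± 7.84 CPM (ONP) at 30 days and at 26.0 ± 8.54 and 32.3 ± 5.46 CPM at 7 days. Its log2FC was -0.10 ± 0.13 and -0.29 ± 0.26, with adjusted p-values of 0.575 and 0.492 (edgeR). Hes5, whose promoter window held the RBPJ core on both strands, had 0 to 15 counts in the ONH and 6 to 31 in the ONP at 30 days, with a log2FC of -0.98 ± 0.70 (adjusted p = 0.275, edgeR). At 7 days it had 2 to 7 and 1 to 10 counts and was not tested. With limma-voom the 30 day log2FC of Hes5 was -2.24 (adjusted p = 0.0322), so its call depended on the method.

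**Figure D2:**
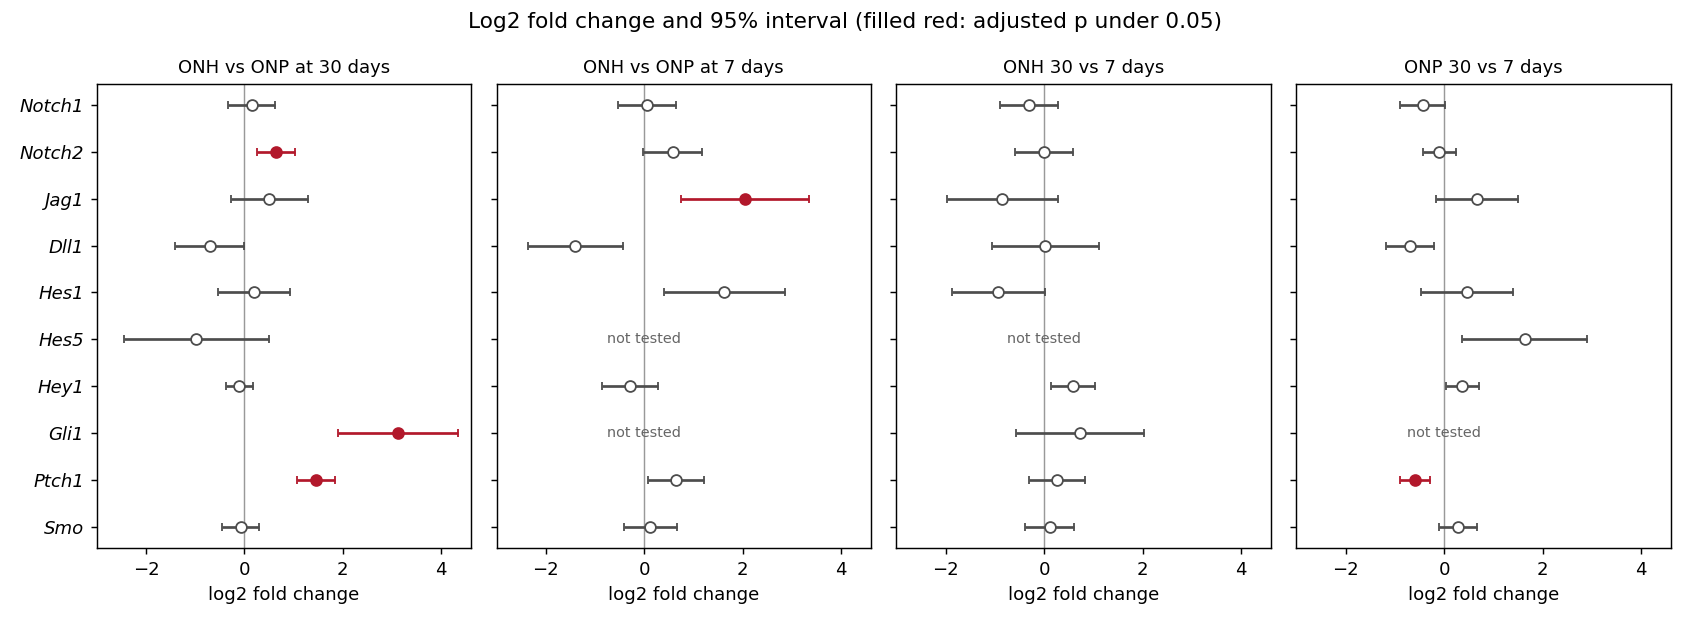
Log2 fold change (horizontal axes) of the 10 genes in the 4 comparisons, with bars for the 95% interval and filled red points for an adjusted p under 0.05. Gli1 (3.12), Ptch1 (1.46) and Notch2 (0.64) are filled for ONH vs ONP at 30 days, Jag1 (2.05) at 7 days and Ptch1 (-0.59) for the ONP between 30 and 7 days.

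The second question was whether the genes differed between 30 and 7 days within a region. In the ONH, 0 of the 9 members tested were called in either direction. The background there was 0% higher and 0% lower, as 0 of 15668 genes passed edgeR's test although 2179 had an unadjusted p under 0.05 and DESeq2 called 446. Of the 9 members, 1 had an unadjusted p under 0.05. This was Hey1, at 17.1, 29.5, 36.2 and 21.2 CPM in libraries 1, 3, 5 and 6 at 7 days and at 32.3 to 46.9 CPM (median 41.0) at 30 days. Of the 7 libraries at 30 days 5 lay above all 4 at 7 days, and the log2FC was 0.59 ± 0.21 (adjusted p = 0.25, edgeR). Hes1 had a log2FC of -0.93 ± 0.44 (adjusted p = 0.365, edgeR), with the 7 day libraries spread from 6.22 to 40.5 CPM. Jag1 had a log2FC of -0.85 ± 0.52 (adjusted p = 0.476, edgeR). For Gli1 and Ptch1 in the ONH the log2FC was 0.73 ± 0.60 and 0.26 ± 0.26, with overlapping groups and adjusted p-values of 0.605 and 0.68 (edgeR). Markers of several other cell types had log2FC below 0 in this comparison, in which 0 genes of any kind were called. The log2FC was below 0 for 9 of 9 endothelial markers (median -2.12, 6 with an unadjusted p under 0.05), 8 of 8 mural markers (median -1.66, 5), 7 of 8 fibroblast and meningeal markers (median -1.49, 6), 7 of 7 tested surface epithelium markers (median -3.66, 6), 6 of 6 pigment cell markers (median -0.93, 2) and 6 of 6 photoreceptor markers (median -1.77, 1). The median over the 10 astrocyte markers was 0.11, and the part of these cell types in the values of Hey1, Hes1 and Jag1 was not tested.

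In the ONP, 1 of the 9 members tested, Ptch1, was lower at 30 than at 7 days and 0 were higher. Of the 15491 genes tested there, 7.82% were called higher and 9.21% lower. Ptch1 was at 36.8, 25.5, 33.2 and 34.6 CPM in libraries 1, 2, 5 and 6 at 7 days and at 17.7 to 27.9 CPM (median 22.7) at 30 days. Of the 7 libraries at 30 days 6 lay below all 4 at 7 days, and the log2FC was -0.59 ± 0.14 with an adjusted p-value of 0.0162 (edgeR). The call was lost without ONP library 1 (adjusted p = 0.0547) or library 6 (0.0596) of the 7 day group and with all 4 groups in a single fit (0.119), with log2FC of -0.50, -0.54 and -0.56. Dll1 fell short of the threshold with a log2FC of -0.69 ± 0.23 (adjusted p = 0.0546, edgeR), and 6 of its 7 libraries at 30 days lay below all 4 at 7 days. It passed with DESeq2 (adjusted p = 0.0257), limma-voom (0.0468) and at least 10 counts in every library (0.0469). Hes5 was at 0.245, 0.0636, 0.164 and 0.375 CPM at 7 days and at 0.292 to 1.33 CPM at 30 days, with a log2FC of 1.64 ± 0.59 (adjusted p = 0.0738, edgeR). For Hey1 the log2FC was 0.37 ± 0.16 (adjusted p = 0.123) and for Notch1 -0.43 ± 0.21 (0.174). Smo had a log2FC of 0.28 ± 0.18 (adjusted p = 0.29, edgeR). Of its 7 libraries at 30 days, 6 lay above all 4 at 7 days and 1 lay below them all. Leaving out 1 library gave log2FC of Smo from 0.22 to 0.42 over 11 fits. It passed in 1 of them, without 30 day library 5. Gli1, at or below 6 counts in every ONP library, was not tested between days.

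The difference between the regions in the change from 7 to 30 days was tested as an interaction over all 22 libraries. Of the 10 members 0 were called in either direction, against 0.149% higher and 0.394% lower of 16748 genes, and DESeq2 also called 0. An unadjusted p under 0.05 was found for 3 members and for 12.6% of all genes tested. Ptch1 had an interaction of -0.85 ± 0.31 on the log2 scale (ONP minus ONH, adjusted p = 0.244), Jag1 of 1.52 ± 0.69 (0.363) and Hes1 of 1.39 ± 0.66 (0.389). The fall of Ptch1 in the ONP was thus not shown to differ from its change in the ONH, nor the region difference of Jag1 at 7 days from that at 30 days.

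Other genes of the 2 pathways were examined from lists of 86 genes, grouped by role. Between the regions at 30 days 16 of the 80 tested were higher in the ONH and 19 lower, near the background of 21.8% and 20%, with a median log2FC of -0.17 (all genes: -0.005). At 7 days 6 were higher and 3 lower of 80, with a median of 0.0045 (all genes: 0.068). Of the other Hedgehog receptors and co-receptors, 3 were higher in the ONH and 2 lower of 6 tested at 30 days, and 2 were higher and 1 lower of 6 at 7 days, where 6.34% of all genes were higher and 6.81% lower.

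Cdon, a co-receptor that binds Hedgehog ligands together with Ptch1, was at 2.91 to 9.04 CPM in the ONH and 0.584 to 1.63 in the ONP at 30 days. At 7 days it was at 4.04 to 15.2 and 0.613 to 2.71 CPM. The regions did not overlap at either day, with log2FC of 2.53 ± 0.31 (adjusted p = 1.95e-05) and 2.48 ± 0.59 (0.0197, edgeR). Lrp2, or megalin, an endocytic receptor that also takes up Hedgehog ligands, was higher in the ONH at both days, by 1.61 ± 0.55 (adjusted p = 0.0284) and 2.89 ± 0.47 (0.00288). The related co-receptor Boc was lower in the ONH at 30 days (-1.15 ± 0.44, adjusted p = 0.0466), and at 7 days its log2FC was -0.18 (0.843). Hhip, a membrane protein that binds and sequesters Hedgehog ligands and is itself induced by the pathway, was lower in the ONH at both days. Its level was 5.17 to 14.6 CPM in the ONH and 10.4 to 23.6 in the ONP at 30 days, and 3.86 to 12.2 and 32.1 to 50.9 CPM at 7 days. The log2FC was -0.98 ± 0.25 (adjusted p = 0.00595) and -2.44 ± 0.36 (0.00182, edgeR). Hhip, which shares with Gli1 and Ptch1 that the pathway induces it, thus had the opposite direction between regions. Gas1, a further co-receptor, had group means of 97.3 to 241 CPM and was not called. Gpr161, a ciliary receptor that restrains the pathway, was at 15.9 ± 3.52 CPM in the ONH and 9.45 ± 3.74 in the ONP at 30 days (log2FC 0.74 ± 0.25, adjusted p = 0.0254, edgeR).

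Among the ligands, Dhh was detected well and Shh and Ihh were not. Dhh was at 72.5 to 139 CPM in the ONH and 27.0 to 83.0 in the ONP at 30 days, with a log2FC of 1.13 ± 0.24 (adjusted p = 0.0016, edgeR). At 7 days the regions overlapped, with means of 106 ± 35.3 and 89.2 ± 16.9 CPM (adjusted p = 0.532). Shh and Ihh did not pass the filter in these comparisons, and their highest group means were 0.0486 and 0.147 CPM. Of the other GLI factors Gli3, which acts mainly as a repressor, was higher in the ONH at 30 days (16.2 ± 3.495 and 9.80 ± 3.44 CPM, log2FC 0.72 ± 0.21, adjusted p = 0.0133), and Gli2 was at 1.76 ± 1.04 and 2.38 ± 0.533 CPM with no call. Prkaca, the catalytic subunit of protein kinase A, which promotes the processing of GLI factors into repressors, was lower in the ONH at 30 days, by -1.40 ± 0.37 (adjusted p = 0.0065). At 7 days its means were 43.7 ± 30.9 CPM in the ONH and 40.6 ± 28.2 in the ONP, with a log2FC of 0.13 ± 0.64 (adjusted p = 0.914, edgeR). Of 13 genes of transport into the primary cilium, 5 were higher and 1 was lower in the ONH at 30 days, and 3 were higher and 0 lower at 7 days (all genes: 21.8% higher and 20% lower at 30 days, 6.34% and 6.81% at 7 days). Arl13b, a ciliary GTPase, had log2FC of 1.21 and 1.04 at the 2 days, Tulp3, an adaptor that brings receptors into the cilium, of 0.9995 and 1.17, and Ift20, a subunit of the transport complex, of 0.96 and 0.83.

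On the Notch side, Dll3, a Delta-like protein that does not activate receptors on other cells, was lower in the ONH at 30 days, with 0.251 to 1.93 CPM against 1.67 to 12.7 in the ONP. Its log2FC was -3.23 ± 0.51 (adjusted p = 0.000152, edgeR), and at 7 days it was -2.11 with an adjusted p-value of 0.0661. Of the 9 genes of receptor cleavage, 5 were lower and 1 was higher in the ONH at 30 days, where 20% of all genes were lower and 21.8% higher, and 1 was lower and 0 were higher at 7 days, where 6.81% and 6.34% were. Adam10, the metalloprotease that cuts Notch after ligand binding, was lower at 7 days (-0.80 ± 0.19, adjusted p = 0.0174). Itch, a ubiquitin ligase that marks Notch for degradation, was lower in the ONH at both days, by -0.96 ± 0.16 and -1.01 ± 0.19 (adjusted p = 0.000242 and 0.00667). Of the 7 genes of the nuclear complex 3 were higher in the ONH at 30 days and 1 at 7 days. Hes6, a HES family member that counteracts Hes1, was higher in the ONH at 30 days (69.2 ± 12.1 and 37.0 ± 2.00 CPM, log2FC 0.90 ± 0.10, adjusted p = 5.99e-06), with groups that did not overlap. It is not taken here as a readout of Notch activity. Among the other targets Hey2, at group means of 11.8 to 21.4 CPM, was not called, and Heyl, Hes7 and Nrarp had group means of at most 5.33, 0.841 and 1.39 CPM. The receptors Notch3 and Notch4 had group means of at most 1.21 and 9.16 CPM and were not called, and the ligand Dll4 had at most 2.54 CPM.

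**Figure D3:**
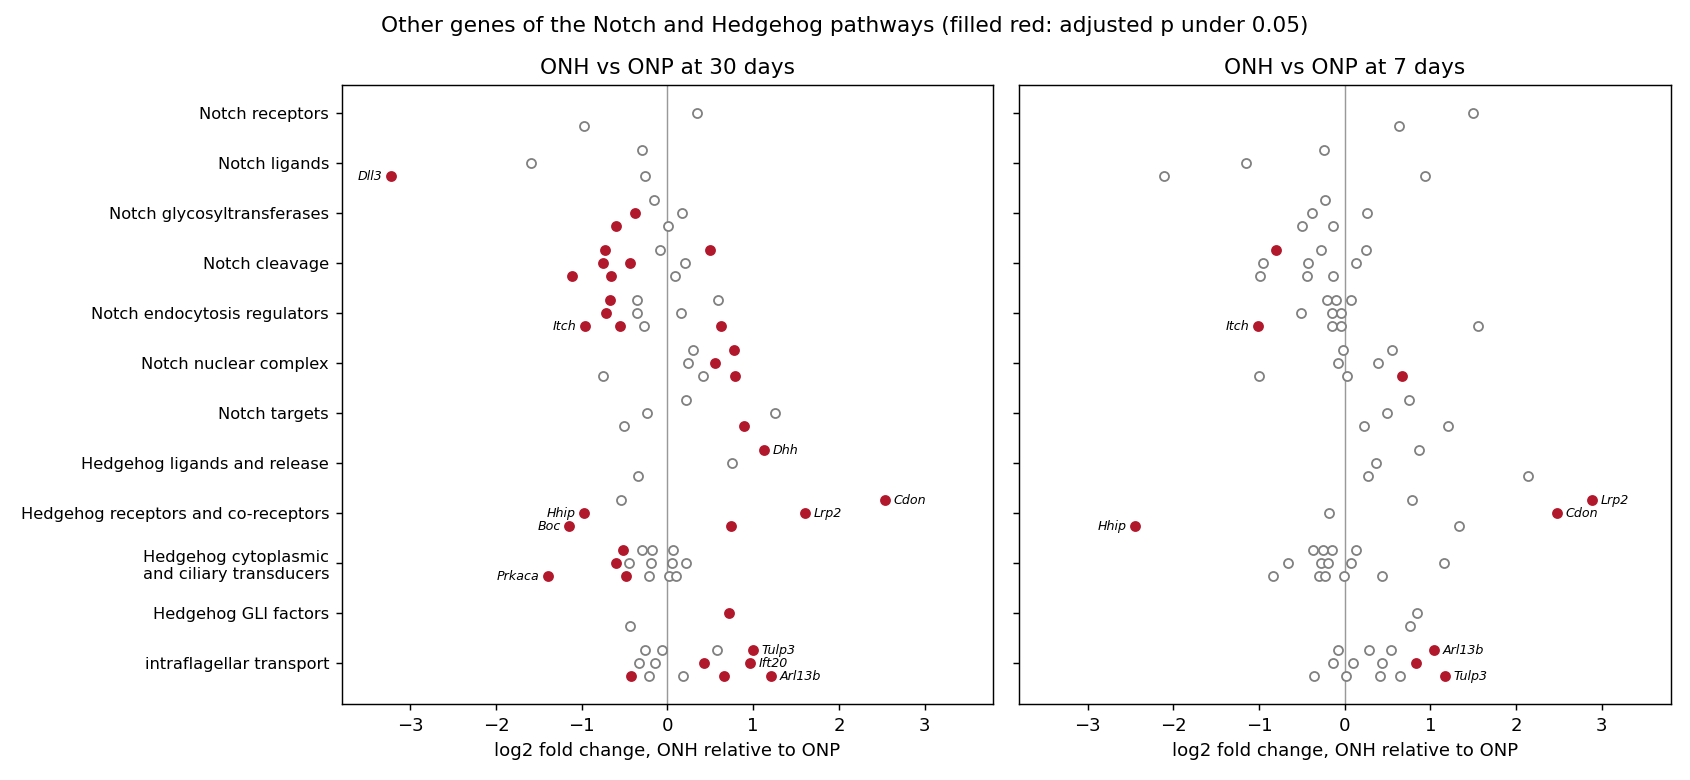
Log2 fold change of the ONH relative to the ONP (horizontal axes) at 30 and 7 days for the other tested genes of the 2 pathways, 1 point per gene in rows by role, filled red for an adjusted p under 0.05, with names for most filled points beyond 0.95 in size. Cdon (2.53 and 2.48) and Lrp2 (1.61 and 2.89) lie to the right at both days and Hhip (-0.98 and -2.44) to the left.

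Between 30 and 7 days in the ONP, 2 of the 81 other genes tested were higher and 9 lower, against 7.82% higher and 9.21% lower of all genes, so that the count of lower genes was near the background. Dlk1, a noncanonical Notch ligand, was at 0.292 to 1.62 CPM at 30 days and at 0 to 0.187 at 7 days, so its log2FC of 3.63 ± 0.78 (adjusted p = 0.00952) stands against libraries near the floor. Ift27 was higher by 0.71 ± 0.12 (adjusted p = 0.00309). Jag2, a ligand of the Jagged family, was lower by -1.61 ± 0.42 (adjusted p = 0.0227), Dlk2 by -1.24 ± 0.32 (0.0222), Hhip by -1.23 ± 0.23 (0.00465) and Lfng, a glycosyltransferase that alters the ligand preference of Notch, by -0.92 ± 0.28 (0.04). Dhh was also lower at 30 days in the ONP (-0.90 ± 0.26, adjusted p = 0.0316). Of the 6 other Hedgehog receptors and co-receptors tested there, 1 was called lower and 0 higher, and 4 had a log2FC above 0. In the ONH 0 of 83 were called and 8 had an unadjusted p under 0.05, as did 13.9% of all genes. An interaction was shown by 0 of 83.

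Markers of several other cell types differed between regions or days. Beside the counts below, 21.8% of all genes were called higher and 20% lower in the ONH at 30 days. At 7 days these shares were 6.34% and 6.81%. Between 30 and 7 days in the ONP they were 7.82% and 9.21%. Of the 10 oligodendrocyte markers 8 were lower in the ONH at 30 days and 10 at 7 days, with summed levels of 13870 to 41828 (ONH) and 26121 to 84745 CPM (ONP) at 30 days and of 18973 to 36038 and 82800 to 108261 CPM at 7 days. Of the 6 markers of oligodendrocyte precursors 5 and 4 were lower in the ONH, with summed levels of 330 to 717 and 891 to 1507 CPM at 30 days and of 361 to 522 and 1523 to 1931 CPM at 7 days. In the ONP 8 of the 10 oligodendrocyte markers and 6 of the 9 endothelial markers were lower at 30 than at 7 days, the latter with sums of 11.8 to 101 and 126 to 168 CPM. Of the 6 pigment cell markers 6 were higher in the ONH at both days, with sums of 77.8 to 976 CPM in the ONH and 3.46 to 8.40 in the ONP. Photoreceptor markers were higher for 6 of 6 at 30 days and 5 of 6 at 7 days, with sums of 103 to 5684 CPM in the ONH and 2.40 to 128 in the ONP.

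Of the 8 mural cell markers, of which 7 were tested at 30 days, 3 were higher and 1 lower in the ONH at 30 days and 2 higher at 7 days. Their sums were 207 to 891 CPM in the ONH and 105 to 232 in the ONP. Of the 8 fibroblast and meningeal markers 3 and 2 were higher in the ONH, with sums of 499 to 2050 CPM in the ONH and 164 to 711 in the ONP. Of the 10 astrocyte markers 1 was higher and 3 lower in the ONH at 30 days and 2 lower at 7 days, and of the 9 endothelial markers 2 and 1 were higher. At 30 days these counts were near the shares over all genes, 21.8% higher and 20% lower. For microglia and macrophages 1 of 9 was lower at 30 days and 0 were called at 7 days. The sums of these markers spread widely at 30 days, from 159 to 3368 CPM in the ONH and from 217 to 3578 CPM in the ONP. At 7 days they were 166 to 1682 and 1336 to 2224 CPM. For neurons and retinal ganglion cells 3 of 7 tested were higher at each day. For surface epithelium 1 of 3 tested was higher at 30 days and 0 of 7 at 7 days. None of these lists had a marker at 0 in all libraries of a group. Their part in the differences of Gli1, Ptch1, Notch2, Jag1, Dll1 and Hhip, and of the other pathway genes such as Cdon, Lrp2, Dhh and Arl13b, was not tested. In ONH libraries 1, 3, 5 and 6 at 7 days, where Jag1 was at 11.9, 2.90, 17.2 and 5.72 CPM, the endothelial sums were 113, 32.5, 334 and 409 CPM and the mural sums 660, 469, 891 and 806 CPM. Jag1 and both sums were lowest in library 3, while library 6, with the highest endothelial sum, had the second lowest level of Jag1. The photoreceptor sums of these 4 libraries were 156, 165, 1430 and 5684 CPM. Library 6, with the highest of them, had the lowest level of Hes1 (6.22 CPM). At 30 days ONH library 4, with the highest Jag1 (12.6 CPM), had the highest photoreceptor sum of its group (2293 CPM, median 219). Hes1 in that library was at 17.2 CPM, above its group median of 14.1 CPM, so it was not low there.

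**Figure D4:**
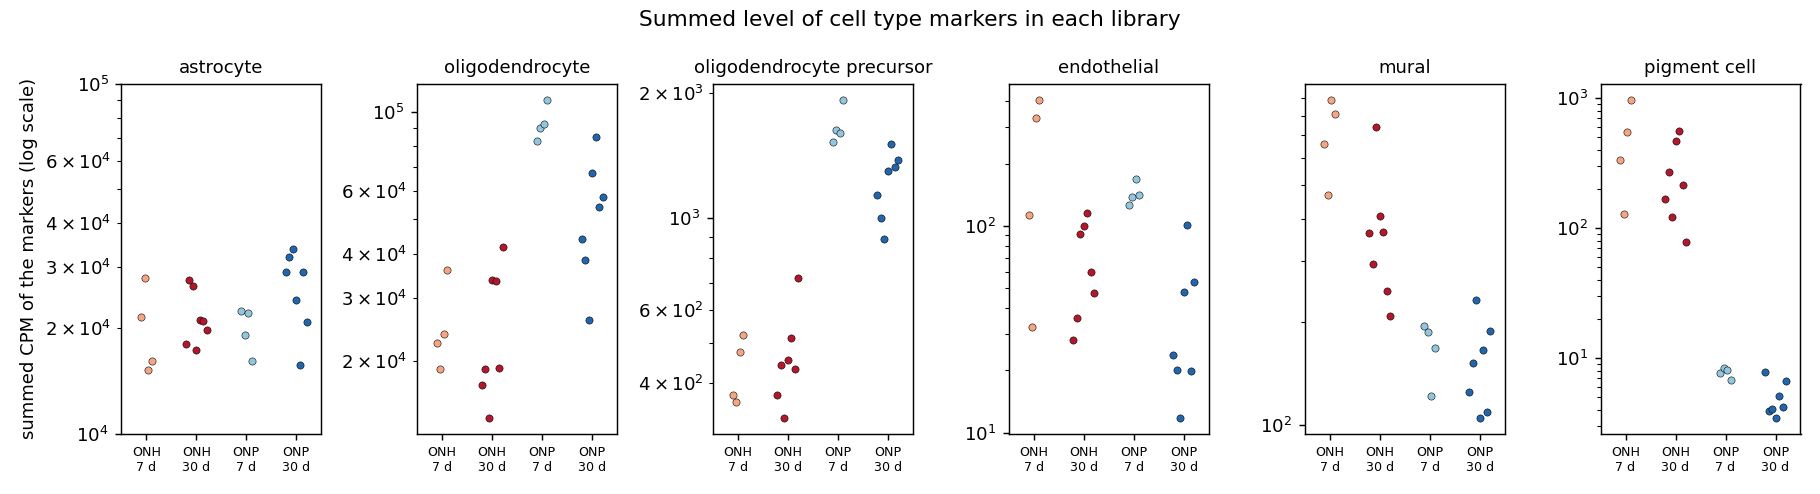
Summed CPM (log scale) of the markers of 6 cell types in each library of the ONH and ONP at 7 and 30 days. Astrocyte sums overlap between all groups (15245 to 33733 CPM), oligodendrocyte precursor sums do not overlap between regions, and pigment cell sums are 77.8 CPM or more in the ONH and 8.40 CPM or less in the ONP.

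The 2 genes whose log2 CPM followed each member most closely over the 22 libraries, among 16748 genes, are given as a description, since the libraries share their region, day and depth. For Ptch1 these were Pgk1 (Pearson r = 0.940) and Sparc (0.915), and for Gli1 they were Pla2g5 (0.912) and Tmem37 (0.898). Hes1 was followed most closely by Il17d (0.959) and Oaf (0.954), Smo by Lsamp (0.896) and Miga2 (0.854), and Hey1 by 9430091E24Rik (0.872) and Cfap206 (0.866). For Dll1 they were Lbr (0.825) and Smarcd1 (0.821), for Notch2 Rps2-ps10 (0.817) and Nhs (0.809), for Notch1 Cplane1 (0.808) and Arhgap32 (0.758), for Jag1 Gm17231 (0.792) and Ush1c (0.786), and for Hes5 Fam198a (0.771) and Rit2 (0.732). Among the members themselves the closest pair was Gli1 and Ptch1 (r = 0.758). After the mean of each group was removed their r was 0.169. Gli1 had at most 6 counts in any ONP library, so this value cannot show whether the 2 genes vary together within groups. Jag1 and Notch2 had r = 0.644 before and 0.595 after the group means were removed, and Notch1 and Smo 0.371 and 0.593.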

How the data were processed

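Ribosome-bound mRNA, recovered so as to enrich that of astrocytes, was measured by RNA-seq in 22 libraries (oligo-dT, Smart-Seq HT kit, all prepared and sequenced together). According to the study's methods and the submitters' processing notes, the authors aligned reads with STAR 2.6.1d in bcbio-nextgen 1.2.8-1c563f1 and quantified them with Salmon 0.14.2 on Ensembl 94. The deposited expected counts, whole numbers that the authors had not normalized, were used here. The deposited log2 values, made with the variance stabilizing transformation of DESeq2 1.34.0, served only to check that genes and libraries were the same.

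Groups were compared with edgeR 4.0.16 in R 4.3.3 (filterByExpr, TMM, quasi-likelihood test, Benjamini-Hochberg over all genes tested, adjusted p under 0.05). A pairwise test used the libraries of its 2 groups and the interaction used all 22. The alternatives were DESeq2 1.42.0 (the study's tool), limma-voom with quality weights (limma 3.58.1), RLE factors, library size only, a minimum of 10 counts in every library, a minimum of 1 count in all, all 4 groups in a single fit, the replicate as a block and each library left out in turn. The scripts were tested on simulated counts. CPM per kb used exon lengths of GENCODE M21, which matched 29322 of 29367 genes.

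The members, the pathway and marker lists and the tests were chosen with earlier results of these data known. All members are named, as are the up to 5 largest increases and decreases among called genes of the pathway lists per comparison, their other receptors, ligands, targets and GLI factors by level, and the 2 genes most like each member. A gene named for 1 comparison is also given in others, and some genes that this rule selects are not reported here. Maximum depth was 33307092 counts and 3 counts were taken as the floor, for counting error only, since PCR copies are not independent molecules. The study's methods took both regions from the same mouse but do not tie library numbers across regions, so libraries were not treated as paired. The 7 day columns carry other numbers than the sample titles, so these libraries were assigned to a group only. Protein sequences were not used here.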

Additional observations from a re-analysis of the deposited data

How the results depend on the processing

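With the replicate block at 30 days the members called were again Gli1 (log2FC 3.13), Ptch1 (1.42) and Notch2 (0.61), and in the interaction with a block (limma-voom) Ptch1 was at -0.86 with no call. Over all genes the block at 30 days gave 6717 calls in place of 6322. The number may not mark a pair: deviations of same-numbered libraries from their group means correlated at 0.0767 to 0.471, over 0.1 in 5 of 7, and 3 of 7 libraries correlated best with their own number. Over the settings other than leaving out a library, 307 single-gene values kept their direction and side of the threshold, 10 gained and 2 lost the threshold and 7 turned. Those that turned were Notch1 at 7 days with limma-voom (-0.030), Dll1 in the ONH between days with limma-voom (-0.023) and with library size only (-0.021), Notch2 in the ONH between days with all 4 groups in a single fit (0.023), and with library size only Notch2 in the ONP between days (0.019) and Notch1 (0.043) and Notch2 (0.079) in the interaction. The count of members called between regions at 7 days (1) was 3 with DESeq2, 0 with limma-voom, 2 with at least 10 counts in every library and 4 with all 4 groups, where Gli1 was among them. In the ONP between days (1) it was 3, 2, 2 and 0 in these settings. Leaving out a library gave 0 to 3 members in either comparison. At 7 days it was 0 without ONH library 1 or 5 or any 1 ONP library and 3 without ONH library 6. In the ONP between days it was 0 without 7 day library 1 or 6, 2 without 30 day library 6 and 3 without 30 day library 5. It also moved these uncalled log2FC across 0: Notch1 (-0.00028 to 0.24) and Hes1 (-0.0048 to 0.34) between regions at 30 days, Notch1 (-0.13 to 0.18) and Smo (-0.064 to 0.27) at 7 days, Dll1 (-0.30 to 0.20), Notch2 (-0.22 to 0.20) and Smo (-0.055 to 0.28) in the ONH between days, and Notch1 (-0.26 to 0.055) and Notch2 (-0.27 to 0.11) in the interaction.

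Over all genes, the calls at 7 days (1940) were 3211 with DESeq2 and 3785 with all 4 groups, those in the ONH between days (0) were 446, 292 and, with no filter, 2, those in the ONP between days (2638) were 1189 with all 4 groups, and those of the interaction (91) were 409 with DESeq2, 55 with limma-voom and 50 with no filter. Leaving out a library took them to as few as 1102 at 7 days and 1439 in the ONP between days, both without ONP 7 day library 6, to as many as 167 in the ONH between days without ONH 7 day library 5, and to 22 (without ONP 7 day library 1) to 318 (without ONH 7 day library 5) in the interaction. Library size alone shifted the median log2FC by 0.11 at 7 days, 0.11 in the ONP between days and 0.15 in the interaction, and the split of higher and lower calls from 936 and 1004 to 1392 and 840, from 1211 and 1427 to 1934 and 966, and from 25 and 66 to 37 and 32. Of the other pathway genes, all 4 groups in a single fit called 17 at 7 days (9) and 4 in the ONP between days (11). The causes were not tested. Depth limits Gli1 in the ONP and Hes5, which had few counts.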
